A study of Mus musculus with 58 samples.

Results

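The genes described here are *Apoe* and its neighbours in the gene cluster on mouse chromosome 7, namely *Relb*, *Clptm1*, *Apoc2*, *Apoc4*, *Apoc1*, *Tomm40*, *Pvrl2*, *Bcam* and *Bcl3*. They were taken by symbol, and all 10 were among the 31246 genes listed for each brain region. The values came from RNA-sequencing of 2 cortical regions, the entorhinal (EC) and the primary visual (PVC) cortex, of male *APOE* targeted replacement mice on a C57Bl/6 background, aged 14 to 15 months. Each region was represented by 29 libraries, of which 10 were from *APOE3/3* and 19 from *APOE3/4* mice, and the animal numbers show that each mouse gave tissue from both. Mice of both genotypes carried human *APOE* in place of mouse *Apoe*, driven by the mouse promoter. The mice of the whole study came from separate colonies, and which of these supplied the sequenced animals is not stated. The reads were nevertheless aligned to the mouse genome and counted on the mouse gene model. The value listed for *Apoe* thus counts only those reads that could be placed on the mouse gene. Whether the transcript of the replaced gene kept any mouse exon sequence is not stated in the sources used here. The share of human *APOE* reads that was not placed was not analysed here.

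The values analysed were the authors' mean normalized counts, 1 per gene and region, over all 29 mice of a region and thus over both genotypes together. Values of single mice were not used here, so no spread between mice and no test can be given, and all of the differences below are descriptions. No statement about *APOE3/4* against *APOE3/3* is made, since the comparison of the genotypes in the tables is the authors' own and was not used. In bulk tissue, fewer cells of a type and less RNA per cell cannot be told apart.

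Apolipoprotein E is the main carrier of cholesterol and other lipids between cells of the brain, where it is made chiefly by astrocytes and, after injury, by microglia. The adjoining apolipoproteins C act on circulating lipoproteins. ApoC2 is the cofactor that activates lipoprotein lipase, apoC1 restrains the uptake of lipoproteins by receptors, and apoC4 is a minor lipoprotein component made mainly in the liver. The other genes of the segment have no shared role. *Tomm40* encodes the channel through which proteins enter mitochondria, *Clptm1* a membrane protein that binds GABA-A receptors, *Pvrl2* the adhesion molecule nectin-2 and *Bcam* a cell surface receptor for laminin. *Relb* encodes a subunit of NF-κB, and *Bcl3* a member of the IκB family that binds NF-κB subunits.

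All 10 genes lie on the minus strand in the NCBIM37 annotation, the build of the authors' alignment. *Apoe* occupies positions 20281458 to 20284515 of chromosome 7. *Apoc1* (20274833 to 20278007), *Apoc4* (20263443 to 20266765), *Apoc2* (20256928 to 20266772), *Clptm1* (20216930 to 20250379) and *Relb* (20191566 to 20214787) lie on one side of it. On the other side are *Tomm40* (20286662 to 20300787), *Pvrl2* (20301993 to 20334922), *Bcam* (20341480 to 20356365) and *Bcl3* (20393811 to 20408119). The start of *Apoc1* is 6.51 kb and that of *Tomm40* 16.3 kb from the start of *Apoe*, and the farthest start, that of *Bcl3*, is 124 kb away. In this annotation the long isoforms of *Apoc2* run across *Apoc4*, and these genes share 112 exon bases, which are 24.1% of the exon bases of *Apoc4* and 12.02% of those of *Apoc2*. The authors counted on another version of the annotation, and how reads on shared bases were handled is not stated. Such reads may have been given to neither gene, so the separate values of this pair are uncertain. *Tomm40*, *Pvrl2*, *Bcam* and *Bcl3* share between 52 and 258 exon bases with noncoding genes on the opposite strand, and whether the counting used strand is not given in the sources used here. *Gm20512*, which overlaps *Tomm40* and *Pvrl2*, is not among the genes listed in the tables, whereas *Gm16733* (at *Bcam*) and *Gm16175* (at *Bcl3*) are.

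The human gene was driven by the mouse promoter, so the reference sequence before mouse *Apoe* is shown. Those before *Clptm1* and *Tomm40*, the highest of the 10 genes per length, are shown with it. Each is the stretch of up to 250 bases before the RefSeq start, 5′ to 3′ on the minus strand, taken from RefSeq windows of GRCm38.p6 and located by an exact match in NCBIM37. They lie at chr7:20284538-20284787 for *Apoe*, chr7:20250380-20250629 for *Clptm1* and chr7:20300788-20301028 for *Tomm40*, where 9 bases of annotated exon were left off. Capitals mark matches on either strand to the CCAAT box (CCAAT), the GC box (GGGCGG) and the TATA box (TATAAA).
Apoe: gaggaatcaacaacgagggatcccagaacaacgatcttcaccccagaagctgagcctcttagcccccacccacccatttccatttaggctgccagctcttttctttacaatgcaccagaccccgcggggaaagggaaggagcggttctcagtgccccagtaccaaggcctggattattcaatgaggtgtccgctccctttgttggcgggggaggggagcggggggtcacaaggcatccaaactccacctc
Clptm1: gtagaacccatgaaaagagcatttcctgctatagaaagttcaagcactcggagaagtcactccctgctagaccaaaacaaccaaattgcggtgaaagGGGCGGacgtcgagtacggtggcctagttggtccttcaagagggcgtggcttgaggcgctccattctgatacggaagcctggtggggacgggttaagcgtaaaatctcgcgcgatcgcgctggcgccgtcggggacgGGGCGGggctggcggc
Tomm40: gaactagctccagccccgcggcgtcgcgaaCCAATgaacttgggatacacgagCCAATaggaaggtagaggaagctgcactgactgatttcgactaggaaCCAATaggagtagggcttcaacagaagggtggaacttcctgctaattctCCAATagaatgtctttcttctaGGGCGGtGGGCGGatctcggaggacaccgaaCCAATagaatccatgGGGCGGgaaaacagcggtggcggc

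The *Apoe* window held none of these motifs, whereas that of *Tomm40* held 5 CCAAT boxes and 3 GC boxes and that of *Clptm1* held 2 GC boxes. The *Apoe* window had 8 CpG dinucleotides against 14 for *Tomm40* and 22 for *Clptm1*, and the median over the windows of 27025 genes was 6. RefSeq windows were found for 8 of the 10 genes, and *Relb* and *Apoc1* had none. Of the 8 windows, 5 held a GC box, 2 a CCAAT box and 0 a TATA box, where 32.96%, 34.5% and 13.0% of all gene windows did. The RefSeq starts of *Apoc2* and *Bcam* lay 3482 and 484 bases inside the gene as annotated in NCBIM37, so their windows lie within these genes. For *Bcl3* 15 bases of annotated exon were left off, whereas the windows of all genes were kept at full length. A match describes the letters of the reference sequence in the window and is not evidence of a bound factor. The promoter sequence of the mice themselves was not examined and may differ from the reference.

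In the EC *Apoe* had a mean normalized count of 636, and in the PVC 344. To compare genes of different length, each mean was scaled to a regional sum of 1000000 and divided by the exon length in kilobases, which is called the length-scaled level below. On this scale *Apoe* stood at 6.50 (EC) and 6.42 (PVC). Of the genes with a mean above 0 and a known length, 32.6% in the EC and 33.4% in the PVC had a higher length-scaled level than *Apoe*. The median length-scaled level of all such genes was 1.91 (EC) and 1.99 (PVC). Among the genes with a mean of at least 10 in both regions the medians were 6.25 and 6.22. The level of *Apoe* as counted was thus close to the middle of the genes that were readily counted. Human reads not placed on the mouse gene are missing from this level, so the place of human *APOE* itself is not known.

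The neighbours differed widely in level. *Clptm1* was the highest in both regions, with mean normalized counts of 8013 (EC) and 4205 (PVC) and length-scaled levels of 39.3 and 37.63. *Tomm40* followed, with means of 2852 and 1517 and length-scaled levels of 13.6 and 13.2. These neighbours thus stood 6.04-fold and 2.09-fold above *Apoe* per length in the EC, and 5.86-fold and 2.06-fold above it in the PVC. Any human *APOE* reads not placed on the mouse gene would make these folds too high, and their share was not analysed. With the longest transcript as the length of the gene instead of all its exons, the length-scaled levels in the EC were 20.9 for *Tomm40* and 9.29 for *Apoe*, and the ranks of the 10 genes were the same.

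Below *Apoe* came the adhesion and laminin receptor genes. *Bcam* had means of 742 (EC) and 375 (PVC), with length-scaled levels of 4.69 and 4.33. *Pvrl2* had means of 343 and 148, with length-scaled levels of 2.02 and 1.59. *Relb*, a subunit of the alternative NF-κB pathway, had means of 261 and 122 and length-scaled levels of 1.36 and 1.16. *Bcl3* was far lower, with means of 14.9 and 6.60 and length-scaled levels of 0.12 and 0.098.

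The apolipoprotein C genes were all lower than *Apoe* per length. *Apoc1* had a mean of 43.0 (EC) and 10.9 (PVC), with length-scaled levels of 1.62 and 0.75. *Apoc2*, the lipase cofactor, was almost uncounted, with means of 0.79 and 0.13, which amount to 22.98 normalized counts summed over all 29 EC libraries and 3.78 over all 29 PVC libraries. *Apoc4* had means of 0.31 and 0.086, or 8.86 and 2.51 normalized counts summed over the libraries. The length-scaled level of *Apoc1* was thus 0.249 times the counted level of the adjoining *Apoe* in the EC and 0.117 times in the PVC. *Apoc2* and *Apoc4* were counted less than 1 time per library on average. The order of the 10 genes by length-scaled level was the same in both regions except that *Apoc1* and *Relb*, and *Apoc2* and *Apoc4*, changed places. Without the spread between mice it cannot be said which neighbours in this order differ beyond it.

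**Figure D1:**
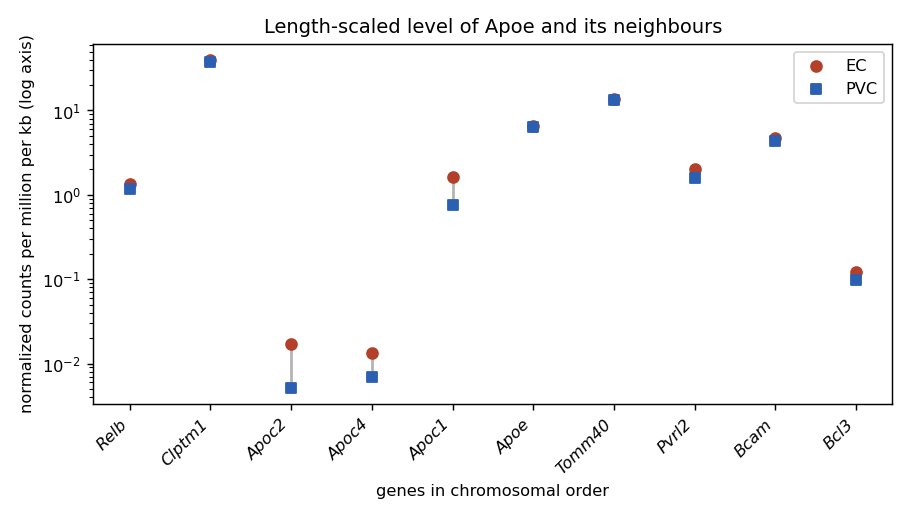
Length-scaled levels (mean normalized counts scaled to a regional sum of 1000000, per kilobase of exon; log axis) of the 10 genes in chromosomal order, with circles for the EC and squares for the PVC, each point being the authors' mean over 29 mice. *Clptm1* is highest at 39.3 in the EC, *Apoe* lies at 6.50, and *Apoc2* and *Apoc4* lie below 0.02.

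Over 500 kb on either side of *Apoe*, 48 genes of the tables could be placed, 38 of them outside the cluster list. The 5 highest per length in the EC were *Clptm1*, *Lrrc68* (38.9), *Rtn2* (27.9), *Clasrp* (27.2) and *Mark4* (24.7), and these were also the 5 highest in the PVC, where *Lrrc68* (53.3) was above *Clptm1*. *Mark4* encodes a kinase that phosphorylates microtubule-associated proteins including tau, and *Rtn2* a reticulon of the endoplasmic reticulum. *Apoe*, as counted from the reads placed on the mouse gene, ranked 10th of the 48 genes in the EC (6.50) and 11th in the PVC (6.42). The median length-scaled level was 1.82 in the EC for the 10 cluster genes and 1.09 for the other 38, and in the PVC it was 1.37 and 1.07. *Apoc2* and *Apoc4*, the lowest of the 10 genes, lay between *Clptm1* and *Apoe*.

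**Figure D2:**
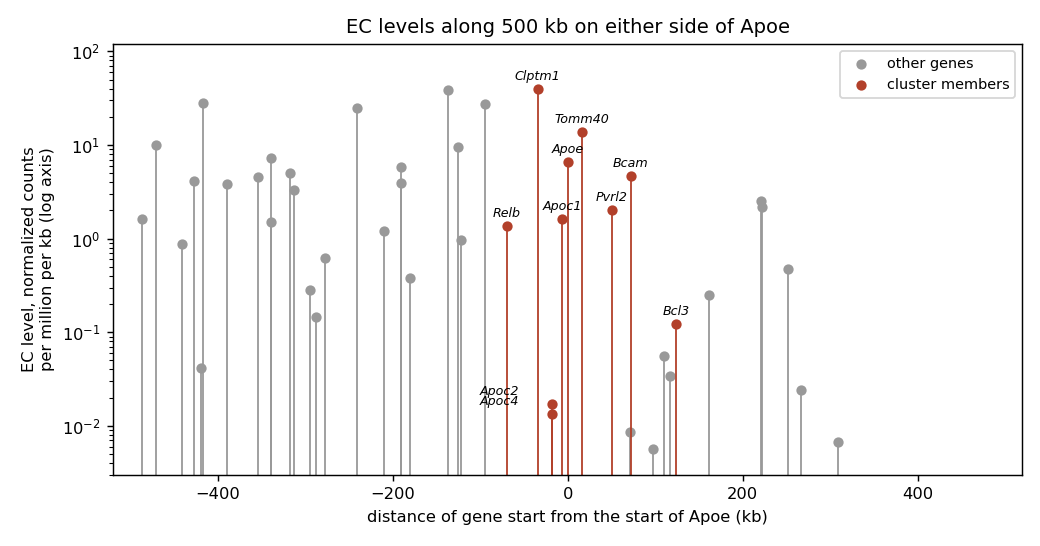
EC length-scaled levels (log axis) of genes starting within 500 kb of the start of *Apoe* against the distance of their starts in kb, with cluster genes in red and other genes in grey. The 4 of 48 genes with an EC mean of 0 are not drawn, and *Apoe* at 6.50 stands between *Apoc1* at 1.62 and *Tomm40* at 13.6.

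How the level of *Apoe* compares with its family, its receptors and the cells that make it was examined with gene lists. In all of these comparisons *Apoe* counts only the reads that could be placed on the mouse gene. Any human reads not placed would make it stand too low beside mouse genes, by an amount that was not analysed. Of 16 other apolipoproteins and relatives, 3 stood above *Apoe* per length in each region. *Clu* (clusterin, another astrocyte lipid carrier) had an EC level of 207.8, *Apod* 40.1 and *Apoo*, a mitochondrial protein despite its name, 19.9. The other 13 had EC levels between 0.0022 and 0.99. As counted, *Apoe* was thus the third highest lipid carrier of the list after *Clu* and *Apod*, and *Clu* was 31.9-fold above it.

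Of the 12 lipoprotein assembly and efflux genes, 6 (EC) and 7 (PVC) stood above *Apoe* per length. The highest in the EC were *Abcg4*, a cholesterol exporter (19.1), *Pltp*, a phospholipid transfer protein (16.6), and *Lcat*, which esterifies cholesterol on lipoproteins (15.3). *Abca1*, the transporter that loads apoE with lipid, had length-scaled levels of 5.61 (EC) and 5.09 (PVC). Of the 12 genes listed as *APOE* receptors and related genes, 7 stood above *Apoe* in both regions, led in the EC by *Sort1* (93.7), *Sdc3* (56.1) and *Lrp1* (50.0), the last a large endocytic receptor for apoE. *Trem2*, a microglial receptor that binds apoE, had levels of 2.32 (EC) and 2.50 (PVC).

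All 8 astrocyte markers stood above *Apoe* per length in both regions. The level of *Apoe* lacks the human reads not placed on the mouse gene, so it does not give the level of human *APOE* beside these markers. *Slc1a2*, the main glutamate transporter, had a level of 278.1 (EC) and 273.7 (PVC), *Aldoc* 239.9 and 238.5, and *Slc1a3* 76.9 and 66.3. The lowest astrocyte marker, *Aldh1l1*, had 11.6 and 14.5. Of the 8 microglia markers, 6 stood above *Apoe* in each region, among them *C1qa* (32.4 in the EC) and *Csf1r* (20.6).

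The relatives of the other neighbours set those in context. *Tomm40* at 13.6 in the EC was below 9 of 11 other mitochondrial import genes, among them *Tomm20* (85.2), *Timm8b* (70.1) and *Tomm22* (38.7), and above its paralog *Tomm40l* (5.47) and *Tomm6* (1.39). *Pvrl2* at 2.02 was below 7 of 9 related adhesion genes, among them *Cadm3* (105.1), *Cadm4* (75.9) and *Cadm1* (35.3). The related nectin *Pvrl1* had a level of 19.7. *Relb* at 1.36 was below 8 of 12 other NF-κB genes, among them *Chuk* (11.6), *Nfkbia* (9.91) and *Nfkbib* (7.88), and above *Nfkb2* (0.74), whose product is its usual partner. *Bcl3* at 0.12 was below all 12.

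**Figure D3:**
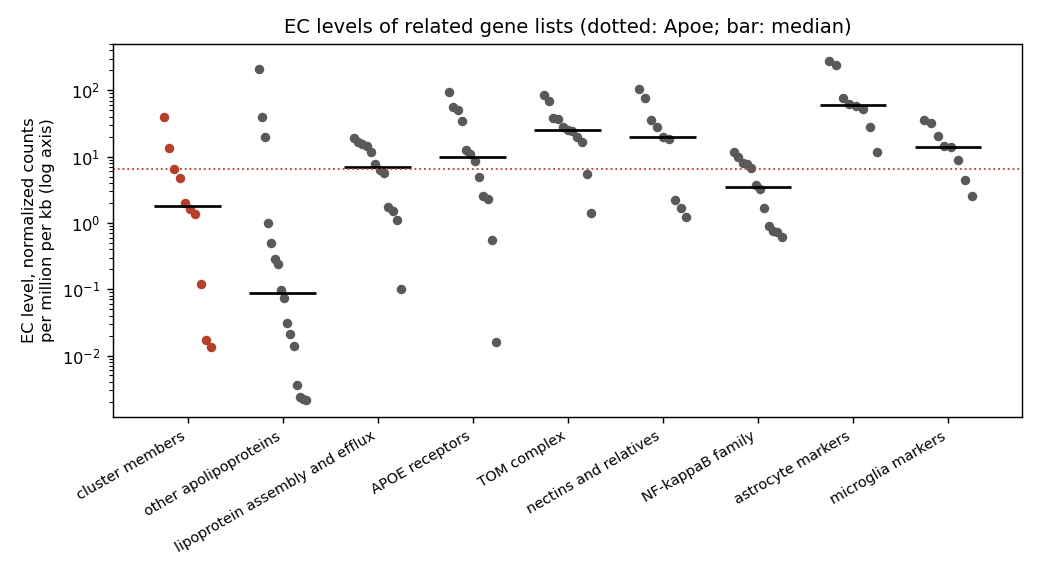
EC length-scaled levels (log axis) of the cluster genes in red and of 8 comparison lists in grey, 1 point per gene, with bars for list medians and a dotted line at the level of *Apoe* (6.50). All 8 astrocyte markers lie above the line and 13 of the 16 other apolipoproteins below it. The line counts only the reads placed on the mouse gene.

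The genes nearest to *Apoe* in length-scaled level over the 2 regions, among 21680 genes with a level above 0 in both, were *Cops7b* (6.50 and 6.40), *Ctso* (6.51 and 6.40), *Sike1* (6.54 and 6.40), *Ddx49* (6.48 and 6.39) and *Vps4b* (6.53 and 6.39). Their distances from the level of *Apoe*, as counted on the mouse gene, were 0.0061 to 0.0093 on the log2 scale. With only 2 regions, many genes have a like pair of levels, and nothing about shared control follows from it.

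The next comparison was between the regions, the EC being vulnerable and the PVC resistant to Alzheimer's disease. *Apoe*, as counted on the mouse gene, stood at nearly the same relative level in both, while *Apoc1* was 2.11-fold higher in the EC. How human *APOE* reads not placed on the mouse gene compare between the regions was not analysed. The regions were deposited in separate tables, and the median gene had a mean 1.86-fold higher in the EC, for a reason that was not tested. Each ratio was centred on the median log2 ratio of the 15642 genes with a mean of at least 10 in both regions. Of the 10 cluster genes 7 met this minimum, while *Apoc2*, *Apoc4* and *Bcl3* did not. The centred log2 ratio of EC over PVC was −0.01 for *Apoe*, 0.02 for *Tomm40*, 0.04 for *Clptm1*, 0.09 for *Bcam*, 0.21 for *Relb*, 0.32 for *Pvrl2* and 1.08 for *Apoc1*. For *Apoe* and *Tomm40* the sign turned with the choice of centring and carries no direction.

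A difference of 1.5-fold was used as a mark of size only. Of the 15642 genes, 6.78% were at least 1.5-fold higher in the EC and 5.38% at least 1.5-fold higher in the PVC. Of the 7 cluster genes compared, 1 was past this mark toward the EC, *Apoc1*, and 0 toward the PVC. The median centred log2 ratio of the 7 genes was 0.09, against 0 over all genes by construction, and the interquartile range of all genes was −0.14 to 0.16. *Apoe*, *Tomm40*, *Clptm1* and *Bcam* were inside this range. *Relb* and *Pvrl2* were outside it, and within 1.5-fold. *Apoc1* rested on few reads, its PVC mean of 10.9 being just above the minimum of 10. *Bcl3*, with means of 14.9 and 6.60, was just under it.

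**Figure D4:**
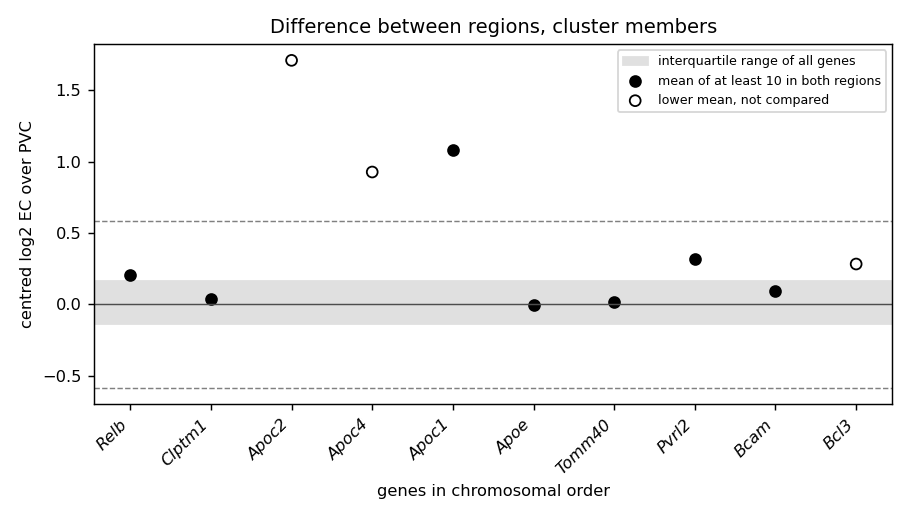
Centred log2 ratio of EC over PVC means for the 10 genes in chromosomal order, with filled points for the 7 genes with a mean of at least 10 in both regions, open points for the others, a grey band for the interquartile range of all 15642 genes and dashed lines at 1.5-fold. *Apoe*, as counted on the mouse gene, lies at −0.01 and *Apoc1* at 1.08.

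Among the 38 other genes of the segment, 23 had a mean of at least 10 in both regions. Of these, *Nkpd1* (0.80) was past 1.5-fold toward the EC, and *Fosb*, an activity-induced transcription factor (−1.003), and *Zfp296* (−0.97) were past it toward the PVC. Their median was 0.002. Of the other apolipoproteins, 5 were compared and 0 were past 1.5-fold in either direction, with centred log2 ratios between −0.51 for *Apool* and 0.44 for *Apoa2*. None of the 11 efflux and assembly genes compared, of the 11 receptors, of the 11 mitochondrial import genes and of the 12 NF-κB genes was past it. Among the 9 adhesion genes *Cadm1* (0.74) and *Pvrl1* (0.61) were past it toward the EC and *Pvrl3* (−0.84) toward the PVC.

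Some cell type markers also differed between the regions. All 8 meningeal fibroblast markers were more than 1.5-fold higher in the EC, with centred log2 ratios between 0.65 for *Lum* and 3.07 for *Dcn*, and their means summed to 293.9 (EC) and 107.6 (PVC) of 1000000. *Dcn* (47.5 per length in the EC), *Igf2* (17.9) and *Aldh1a2* (8.56) were the highest of them. All 6 oligodendrocyte markers were more than 1.5-fold higher in the PVC, with ratios between −1.63 for *Mobp* and −0.99 for *Cnp*, and sums of 918.3 and 2331 of 1000000. *Mbp* (56.1 per length in the EC) and *Cnp* (21.5) were among the highest of them. Of the choroid plexus markers, *Kcnj13* (1.45) and *Sostdc1* (1.16) were past 1.5-fold toward the EC and *Ttr* (−2.18) toward the PVC. *Kl* (0.016), *Clic6* (0.002) and *F5* (0.115) were within it, and *Folr1* and *Otx2* were under the minimum. The part of these cell types in the ratios of *Apoc1*, *Pvrl2* and *Relb* was not tested.

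Markers of the cells that make apoE were closer to even. Of the 8 astrocyte markers *Gfap* (0.62) was past 1.5-fold toward the EC, the median was 0.09 and the range −0.35 for *Aldh1l1* to 0.62. Of the 8 microglia markers none was past it, with a range of −0.04 to 0.15. All 6 endothelial markers, among them *Ly6c1* (20.1 per length in the EC), *Cldn5* (14.4) and *Slco1a4* (11.8), lay between −0.15 and 0.04. The neuron markers of the tissue were present at high levels, *Slc17a7* at 536.6, *Camk2a* at 468.3 and *Snap25* at 335.5 in the EC, and all 7 that were listed lay between −0.55 and 0.14.

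**Figure D5:**
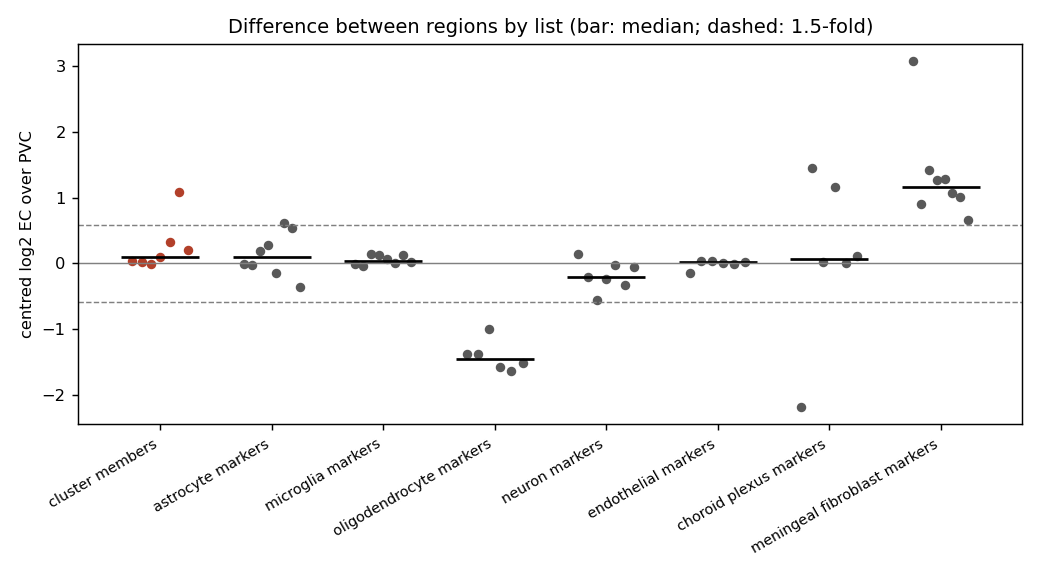
Centred log2 ratio of EC over PVC means for genes with a mean of at least 10 in both regions, for the cluster genes in red and 7 cell type marker lists in grey, with bars for medians and dashed lines at 1.5-fold. The meningeal fibroblast markers all lie above 0.65 and the oligodendrocyte markers all lie below −0.99.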

How the data were processed

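RNA-sequencing of poly(A)+ RNA was performed by the authors on the EC and PVC of 10 *APOE3/3* and 19 *APOE3/4* mice. Per the labels and the study's methods, reads were aligned to mm9 with TopHat2 2.0.6 and Bowtie2 2.0.2.0, counted per gene with HTSeq on an NCBIM37 annotation (described as restricted to protein-coding genes, although the tables also list some noncoding genes), and processed with DESeq2 1.10.1. The authors deposited 1 table per region, and the value used from it was a signal, the mean over all libraries of counts divided by size factors. The 5 other numeric columns hold the authors' comparison of the genotypes (fold change, standard error, statistic and p-values) and were not used. Depth per library was not analysed, and the sums of the means were 49385488 (EC) and 27058393 (PVC).

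Means were scaled to a regional sum of 1000000 and per kilobase of merged exons of GENCODE vM1 (NCBIM37), which matched 80.7% of the symbols listed and 95.8% of the 15642 genes with a mean of at least 10 in both regions. Ratios between regions were centred on the median log2 ratio of those genes. Python 3.11.15, numpy 2.4.6, pandas 2.3.3 and matplotlib 3.10.9 were used. Samples were grouped by the labels' region and genotype. The members and lists were chosen with earlier results of these data known. The genes named were the 10 members, the 5 highest per length within 500 kb, the 5 nearest to *Apoe* in level, and, from each list, the 3 highest and any past 1.5-fold; a few others were named after their values were seen, and some genes of the lists are not reported here. Alternatives were other centrings, minimum means of 100 or above 0, a pseudocount of 1, and the longest transcript as length.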

Additional observations from a re-analysis of the deposited data

How the results depend on the processing

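No paired analysis was possible because the tables give 1 mean per gene and region, with no values of single mice, and for the same reason no replicate could be left out. *Apoc1* remained over 1.5-fold higher in the EC under the other centrings and with a pseudocount of 1, with log2 ratios between 0.99 and 1.11. Without centring its log2 ratio was 1.97, and the median log2 ratio of the 7 genes compared went from 0.09 to 0.98, the mean of the median gene being 1.86-fold higher in the EC. For *Apoe* the log2 ratio was 0.02 from shares of the regional sum and 0.01 with centring on genes with a mean of at least 100, and for *Tomm40* it was −0.01 with centring on all genes with a mean above 0. With a pseudocount of 1, the ratios of *Apoc2* and *Apoc4* reversed to −0.22 and −0.62, and no direction is given for them. With a minimum mean of 100, the genes past 1.5-fold numbered 488 toward the EC and 522 toward the PVC, and with a mean above 0 they numbered 3764 and 2707, against 1060 and 842. The depth of single libraries was not analysed, and low means such as those of *Apoc2*, *Apoc4* and *Bcl3* carry little precision.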
